A study of Mus musculus with 6 samples.

Results

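Solute carriers (Slc genes) encode membrane proteins that move sugars, amino acids, ions, metals, nucleotides and other small solutes across the plasma membrane and the membranes of organelles. The members described here were the protein-coding genes of the table whose symbol starts with *Slc* and a digit and whose mean level over all 6 libraries was at least 1 FPKM (fragments scaled to transcript length and library size). This rule took 209 of 371 protein-coding *Slc* genes, in 44 families, out of 54532 genes listed. The members were thus chosen by their level averaged over both groups, so their levels are a description, whereas the difference between the groups was not used. The members just inside the limit were *Slc9a7* (mean 1.008 FPKM) and *Slc39a4* (1.06), and the genes just outside were *Slc15a2* (0.975) and *Slc16a13* (0.933). Of the 162 *Slc* genes below the limit, 5 were listed at 0 in every library, 3 had a mean of at least 1 FPKM in the control and 8 had one in the cKO.

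RNA was measured in STRA8+ germ cells from mouse testes, as 3 control libraries (genotype label Cre) and 3 libraries of the conditional knockout of *Srsf1* (cKO). SRSF1 is a serine/arginine-rich splicing factor, and STRA8 is the protein made by germ cells that respond to retinoic acid and enter meiosis. Age, strain, the Cre driver, the alleles behind the genotype labels and whether libraries of a group came from separate mice were not given in the sources used here, so the p-values measure only the spread between these libraries.

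Germ cells change their fuel and ion transport as they develop. Spermatocytes and round spermatids rely largely on lactate that Sertoli cells release, and sperm carry hexose carriers, sodium/proton exchangers and anion transporters, several of them made mainly in the male germ line. Many of these late genes have copies that somatic cells use, such as *Slc25a31* beside the ADP/ATP carriers *Slc25a4* and *Slc25a5*.

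The 6 libraries held 14447887 to 17310353 fragments, as recovered from the FPKM steps. The *Srsf1* level was 84.7, 45.2 and 51.9 FPKM in control 1 to 3 and 5.08, 4.94 and 5.17 FPKM in cKO 1 to 3 (log2 fold change −3.29 ± 0.22 SE, limma adjusted p = 5.6e-05). *Stra8* stood between 222 and 313 FPKM in all libraries. Markers of later germ cells went down with the cKO. The summed level of 10 spermatid markers was 2559, 8424 and 2512 FPKM in the control and 8.60, 8.28 and 6.45 FPKM in the cKO, with 10 of 10 lower, and that of 10 pachytene spermatocyte markers was 877, 933 and 764 FPKM against 147, 126 and 130 FPKM, with 9 of 10 lower. Of 10 markers of early meiotic prophase 2 were lower and none was higher, of 8 of differentiating spermatogonia 1 was lower, and of the 7 tested of undifferentiated spermatogonia 1 was higher and 1 lower. Of 28 somatic markers 13 reached 1 FPKM and 1 of them, the Sertoli cell gene *Rhox5*, was higher in the cKO. The summed level of 5 peritubular cell markers, low throughout, was 3.69, 6.44 and 4.13 FPKM in the control and 8.16, 7.04 and 7.35 FPKM in the cKO. *Tagln* among them and the Leydig cell gene *Star* did not overlap between the groups, with adjusted p-values of 0.055 and 0.051. The part of somatic cells in the rises below was not tested. In such bulk samples, fewer cells of a type and less RNA per cell cannot be told apart. Control 2 stood apart by its spermatid markers. It also had the highest sums of macrophage and blood markers (18.99 FPKM, against 5.90 and 6.58 FPKM in control 1 and 3) and of Leydig cell markers (13.98 against 5.45 and 2.955 FPKM). cKO 1 had the highest sum of Sertoli cell markers (119 FPKM, against 48.3 to 86.2 FPKM in the other libraries).

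The 4 promoters shown here belong to members with different behaviour. *Slc22a16* and *Slc9c1* were close to 0 in the cKO, *Slc25a5* rose, and *Slc25a31*, the member with the highest level, did not pass the test. Each is the 250 bases before the transcription start that RefSeq gives on GRCm38.p6, the build that mm10 names, written 5′ to 3′ on the strand of the gene. Capitals mark TGACG or its reverse complement CGTCA, the core of the cAMP response element that the germ cell activator CREM binds. The positions are chr10:40570112-40570361 for *Slc22a16*, chr16:45535016-45535265 for *Slc9c1*, chr3:40708621-40708870 for *Slc25a31* and chrX:36795347-36795596 for *Slc25a5*, all on the plus strand.
Slc22a16: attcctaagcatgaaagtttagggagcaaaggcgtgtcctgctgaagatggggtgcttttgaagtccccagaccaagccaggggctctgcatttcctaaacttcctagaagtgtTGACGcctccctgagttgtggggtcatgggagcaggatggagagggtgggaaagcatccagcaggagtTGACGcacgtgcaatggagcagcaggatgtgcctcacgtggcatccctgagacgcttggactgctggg
Slc9c1: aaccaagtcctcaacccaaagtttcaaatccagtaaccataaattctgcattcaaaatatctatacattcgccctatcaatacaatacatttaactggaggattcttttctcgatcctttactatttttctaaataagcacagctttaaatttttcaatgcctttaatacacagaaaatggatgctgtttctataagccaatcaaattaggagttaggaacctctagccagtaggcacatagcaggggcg
Slc25a31: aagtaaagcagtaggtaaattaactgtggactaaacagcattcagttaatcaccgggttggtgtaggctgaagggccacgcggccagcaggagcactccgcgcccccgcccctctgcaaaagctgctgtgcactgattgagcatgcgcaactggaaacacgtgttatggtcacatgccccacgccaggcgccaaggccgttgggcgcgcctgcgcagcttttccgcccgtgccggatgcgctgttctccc
Slc25a5: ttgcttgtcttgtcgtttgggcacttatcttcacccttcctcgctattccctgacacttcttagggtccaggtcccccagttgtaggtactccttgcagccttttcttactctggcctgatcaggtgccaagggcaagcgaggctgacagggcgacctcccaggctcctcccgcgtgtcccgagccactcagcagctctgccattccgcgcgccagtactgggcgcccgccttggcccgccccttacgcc
Only the *Slc22a16* window among these 4 held the core, with copies starting 136 and 68 bases before the start. Of the members, 164 matched the RefSeq table, with 216 promoters, whereas *Slc2a3* and *Slc16a7* had no entry. The core lay in 4 of the 29 promoters (13.8%, from 26 genes) of members that fell. It lay in 10 of the 38 (26.3%, from 24 genes) of members that rose. The share was 23.6% of all member promoters and 17.8% of 32851 promoters in all. Several promoters of 1 gene were counted separately. The full element TGACGTCA, which contains the core, was in 0 of the 29, in 3 of the 216 and in 1.55% of all. CpG pairs were more frequent in member promoters than in all promoters, with a median of 14 per window against 6. The median was 11 for members that fell and 14.5 for those that rose. The set of all promoters covered 27025 genes with no level filter, unlike the members, so the contrasts with it are between unlike sets. A match is a stretch of letters and not a bound site.

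Of the 209 members, 28 were higher and 32 lower in the cKO by limma with Benjamini-Hochberg adjustment over all 15451 genes tested (adjusted p of at most 0.05), and 149 did not pass. Among all genes tested, 11.8% were called higher and 22.2% called lower, against 13.4% and 15.3% of the members. The median log2 fold change was 0.034 for members and −0.008 for all genes. The 3 control and 3 cKO values did not overlap in 99 members, 47.4%, where the background over all genes was 50.4%. Thus the share of members called higher was near that of all genes, and the share called lower was below it. The split of the calls moved with the scaling, though no member was called in the opposite direction. Quantile normalisation, which shifted the median of all genes from −0.008 to 0.215, gave 85 members higher and 27 lower, so that 24.1% of the calls were falls instead of 53.3%. A fit with the replicate number as a block moved it the other way, with 10 higher and 29 lower (74.4% falls).

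The falls were much larger than the rises. Of the 32 members that fell, 24 kept less than 50% of their control mean and 11 kept less than 10%, and 23 had a log2 fold change of −1 or below. Of the 28 that rose, 3 were at least 2-fold and 12 at least 1.5-fold the control mean, and none reached a log2 fold change of 1. Over all genes tested, 1939 of the 3437 falls had a log2 fold change of −1 or below and 177 of the 1821 rises one of 1 or above, so the larger falls were common to these libraries. In all of the 16 refits that tested them, with other filters, scalings, tests or libraries, 26 of the falls and 9 of the rises were called. These 9 were *Slc5a6*, *Slc6a8*, *Slc7a1*, *Slc12a2*, *Slc19a1*, *Slc25a5*, *Slc29a1*, *Slc29a2* and *Slc30a9*. On the log2(FPKM + 1) scale the changes of low genes are understated. The members with a mean of at least 1 FPKM in both groups, 188 of them, held 27 of the rises and 18 of the falls. Another 17 reached 1 FPKM in the control alone and 14 of these fell, and 4 reached it in the cKO alone and 1 of these rose. The refit that required 1 FPKM in both groups did not test these 17 or these 4. Of the 23 falls with a log2 fold change of −1 or below, 13 were among the 17 and 10 among the 188. This split uses the groups and is a description.

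**Figure D1:**
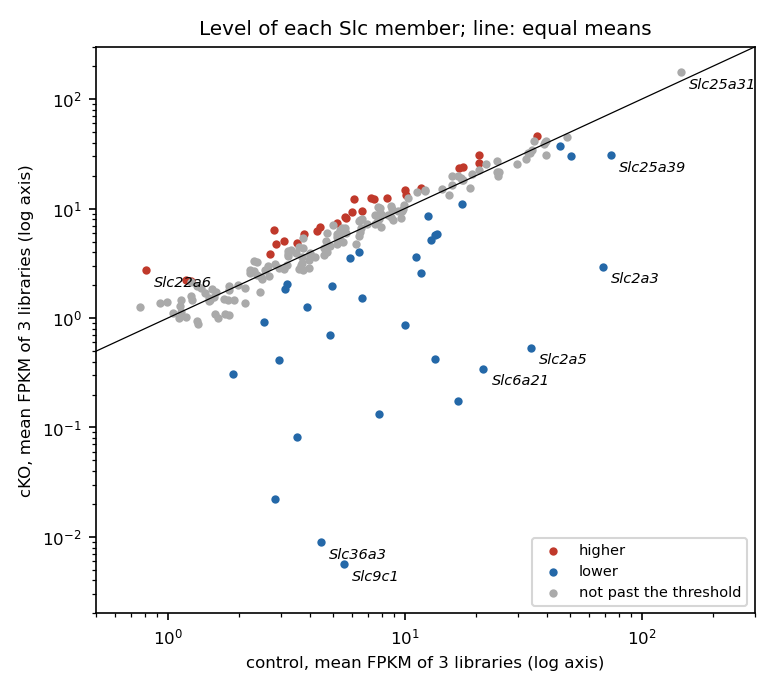
Mean FPKM of each of the 209 members in the control (x axis) and in the cKO (y axis), both on log axes, with the line of equal means. Most members lie near the line, the 28 that rose sit just above it, and the falls reach down to *Slc9c1* and *Slc36a3*, while *Slc25a31* stands at the top in both groups.

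The families were grouped by the main cargo of each family, so that single members can carry another solute. The class of protons, sodium, chloride and phosphate had 3 members higher and 7 lower of 28, the mitochondrial carriers 4 and 7 of 41, and the class of organic ions, vitamins and lipids 5 and 5 of 28. The glucose and monocarboxylate class had 5 and 5 of 24 (3 and 5 of 22 without *Slc5a5* and *Slc5a6*, which carry iodide and vitamins and were placed there by their family), the amino acid class 3 and 3 of 32, the metal ion class 4 and 3 of 25, and the class of nucleosides and nucleotide sugars 4 and 2 of 27. Beside these counts stand 11.8% higher and 22.2% lower over all genes tested, and for example 10.7% and 25.0% in the first of these classes and 9.76% and 17.1% of the mitochondrial carriers. The 5 rises of the glucose and monocarboxylate class became 1 to 3 when any 1 library was left out. The class medians ran from −0.045 for the mitochondrial carriers to 0.165 for nucleosides and nucleotide sugars on the log2 scale. Every class thus had calls in both directions, with its median near 0. With 1 FPKM required in both groups, however, the class of nucleosides and nucleotide sugars had 0 lower. Another 4 members are not transporters in spite of their names (*Slc4a1ap*, *Slc7a6os*, *Slc9a3r1* and *Slc9a3r2*, an adaptor, an RNA polymerase assembly factor and a pair of scaffold proteins) and none of them passed the test.

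**Figure D2:**
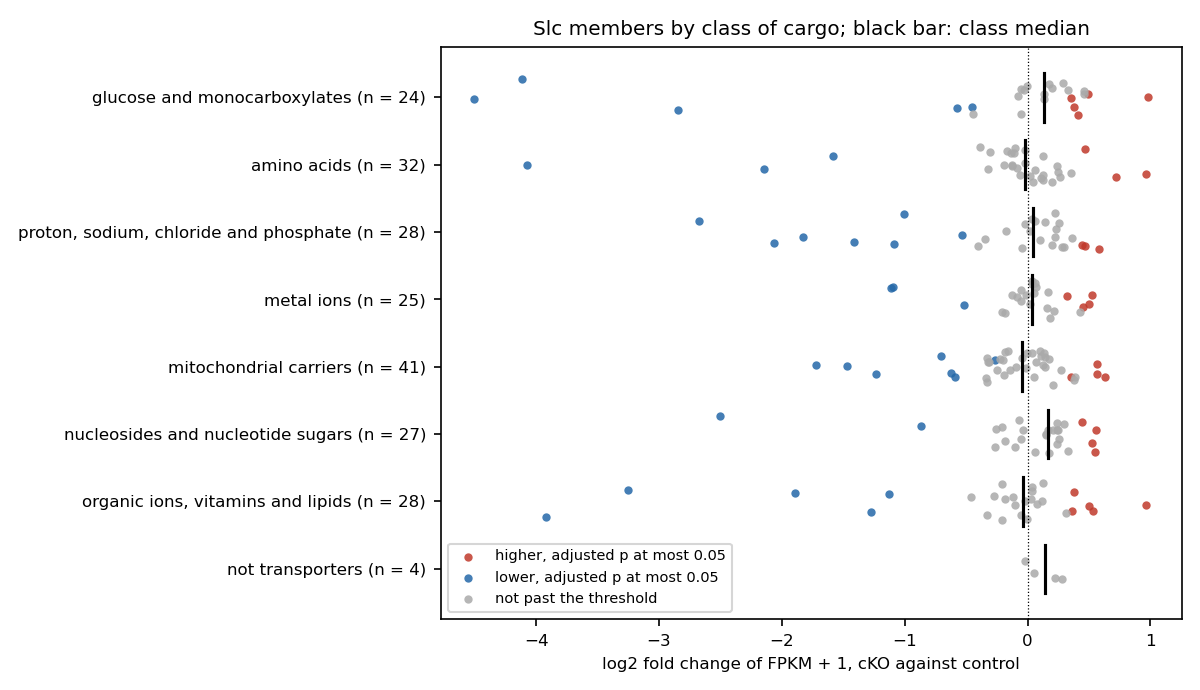
Log2 fold change of FPKM + 1 (cKO against control, x axis) of each of the 209 members, by class of cargo. Points are members, red for higher, blue for lower and grey for not past the threshold, and the black bar is the class median. The medians lie between −0.045 and 0.165, whereas the blue points reach −4.50 and the red points stop at 0.98.

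On the log2(FPKM + 1) scale the hexose facilitators held the largest falls of all members. By the share of the control mean that was left, *Slc22a16* (1.05%) lay lower, and *Slc9c1*, *Slc36a3* and *Slc13a5* held only 1, 1 and 5 fragments in the 3 cKO libraries together, too few for an exact share. *Slc2a5*, the fructose carrier GLUT5, measured 31.6, 40.5 and 30.0 FPKM in the control and 0.599, 0.582 and 0.425 FPKM in the cKO (log2 fold change −4.50 ± 0.13 SE, limma adjusted p = 2.3e-06). *Slc2a3*, the high-affinity glucose carrier GLUT3, measured 84.3, 58.1 and 63.3 FPKM against 2.995, 2.71 and 3.16 FPKM (−4.12 ± 0.14, adjusted p = 4.0e-06). These genes kept 1.57% and 4.31% of their control means, and all their control values lay far above all their cKO values. The loss did not extend to every facilitator. *Slc2a1*, the GLUT1 carrier found in most cells, measured 7.55, 7.56 and 8.64 FPKM in the control and 10.7, 8.36 and 7.51 FPKM in the cKO (0.13 ± 0.13, adjusted p = 0.48), and the groups overlapped. The insulin-responsive carrier *Slc2a4* rose from 3.44, 3.25 and 3.81 to 4.63, 5.26 and 4.62 FPKM (0.38 ± 0.11, adjusted p = 0.033), which no longer passed with any of the 6 libraries left out (adjusted p up to 0.098), and *Slc2a8*, an intracellular hexose carrier, fell from 6.41, 6.24 and 6.61 to 3.79, 3.62 and 4.63 FPKM (−0.57 ± 0.11, adjusted p = 0.0074), but not under quantile normalisation (−0.28, adjusted p = 0.078). The order of the carriers thus turned. *Slc2a3* stood at 11.2, 7.69 and 7.32 times the FPKM of *Slc2a1* in control 1 to 3, and at 0.281, 0.325 and 0.421 times in cKO 1 to 3.

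The monocarboxylate carriers bring lactate and pyruvate into germ cells. *Slc16a7*, the high-affinity carrier MCT2, measured 5.12, 13.2 and 5.17 FPKM in the control and 0.167, 0.104 and 0.128 FPKM in the cKO (−2.84 ± 0.33 SE, limma adjusted p = 7.2e-04). Control 2 was the highest library, and without it the log2 fold change was −2.44 (adjusted p = 3.5e-05). *Slc16a1*, the widely expressed carrier MCT1, rose from 38.0, 31.8 and 38.4 to 45.9, 51.2 and 41.8 FPKM (0.35 ± 0.11, adjusted p = 0.043), a rise that did not pass when any library other than cKO 3 was left out (adjusted p up to 0.11). *Slc16a3*, the carrier MCT4, was at 1.60, 2.29 and 1.57 FPKM and at 1.24, 0.745 and 1.24 FPKM, with no overlap but an adjusted p of 0.097. The ratio of *Slc16a7* to *Slc16a1* was 0.135, 0.414 and 0.135 in the control and at most 0.0036 in the cKO. *Slc16a1* was thus the more abundant carrier per length in all 6 libraries.

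**Figure D3:**
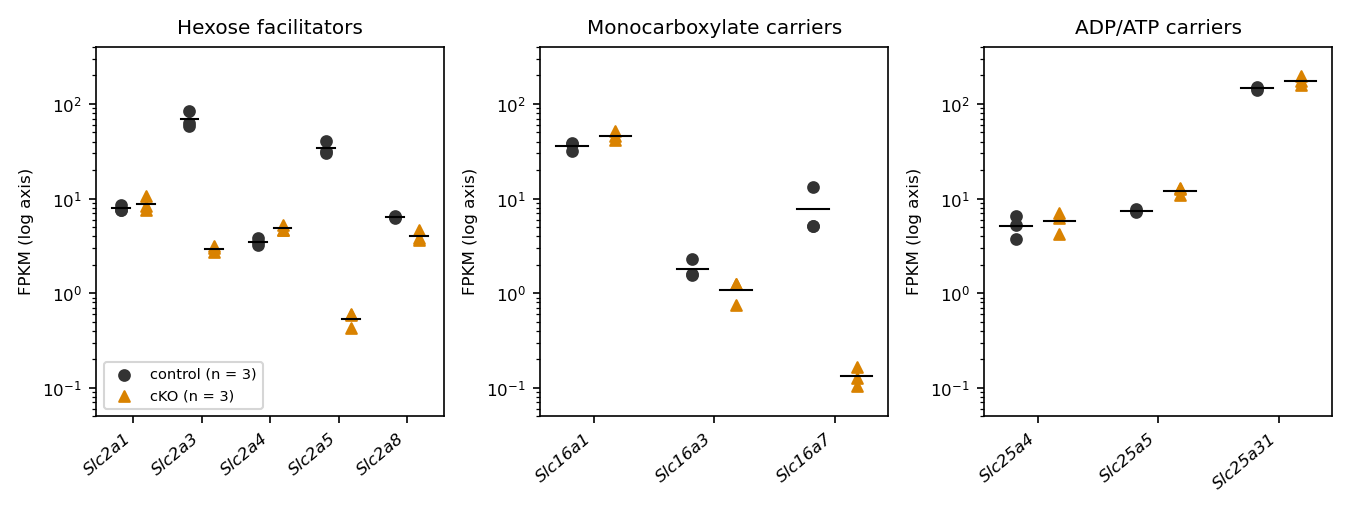
FPKM on a log axis of related carriers in each library (circles, control; triangles, cKO; n = 3 each; bars, means), for hexose facilitators, monocarboxylate carriers and ADP/ATP carriers. *Slc2a3*, *Slc2a5* and *Slc16a7* drop by more than 10-fold, *Slc2a1* overlaps between the groups, and *Slc25a31* stays above 140 FPKM in every library.

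The sodium-coupled family of the same class went the other way in 2 of its 3 calls. *Slc5a5*, the sodium/iodide symporter, rose from 4.44, 4.14 and 9.71 to 11.1, 13.2 and 12.5 FPKM (0.98 ± 0.27 SE, limma adjusted p = 0.032). This was the largest rise on the log2(FPKM + 1) scale, while by ratio of means its 2.01-fold lay behind *Slc22a6* (3.41-fold) and *Slc6a8* (2.28-fold). Control 3 lay close to the cKO values, and the gene passed without control 3 (1.32, adjusted p = 6.4e-04) but not when any other library was left out (adjusted p up to 0.1). *Slc5a6*, which takes up biotin and pantothenate, rose from 19.0, 16.2 and 17.95 to 23.4, 24.9 and 23.2 FPKM (adjusted p = 0.0086). *Slc5a10*, a mannose and fructose cotransporter, fell by 0.45 on the log2 scale (adjusted p = 0.037, and 0.47 under quantile normalisation), and *Slc45a3* rose by 0.49 (adjusted p = 0.024), with 89.4% of its 100-base windows found in no other gene. Summed over its 24 members the glucose and monocarboxylate class held 244.6 ± 8.75 FPKM in the control and 165.0 ± 4.24 FPKM in the cKO (SD, n = 3), or 11.6% and 8.52% of the FPKM of all members. Without *Slc5a5* and *Slc5a6* the sums were 220.8 ± 8.82 and 128.9 ± 2.98 FPKM. *Slc2a3* and *Slc2a5* carried this fall, since the class without this pair summed to 142.0 ± 5.94 FPKM in the control and 161.5 ± 4.40 FPKM in the cKO.

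**Figure D4:**
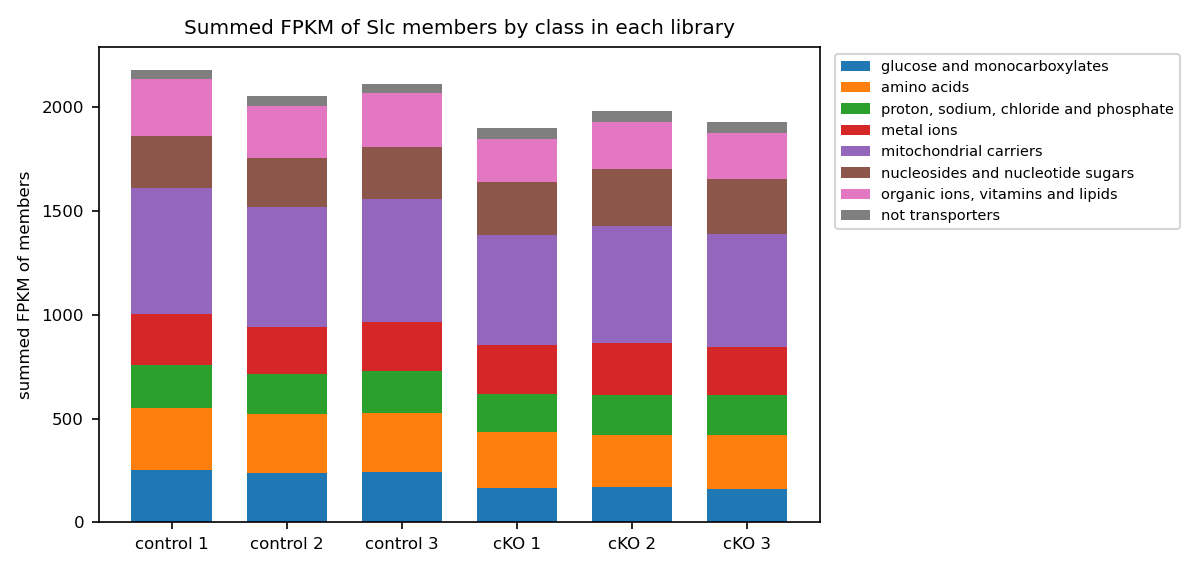
Summed FPKM of the members (y axis) in each library, stacked by class of cargo. The total is 2052 to 2179 FPKM in the control and 1897 to 1981 FPKM in the cKO, and the glucose and monocarboxylate class shrinks the most, from 237 to 254 FPKM down to 161 to 170 FPKM, a loss that lies in *Slc2a3* and *Slc2a5*.

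Several ion transporters, most of them known from sperm, fell close to 0 or to a low level. *Slc9c1*, the sodium/proton exchanger of sperm that motility depends on, measured 7.003, 4.26 and 5.33 FPKM in the control, while the cKO libraries held 0, 1 and 0 fragments (limma adjusted p = 6.0e-05). *Slc34a2*, a sodium-dependent phosphate cotransporter, was at 3.86, 3.15 and 3.56 FPKM in the control and at 0.152, 0.068 and 0.026 FPKM in the cKO (−2.06 ± 0.14 SE, adjusted p = 6.5e-05). *Slc26a8*, the anion transporter of the sperm annulus, fell from 13.5, 10.6 and 10.9 to 2.89, 2.15 and 2.63 FPKM (−1.83 ± 0.13, adjusted p = 8.3e-05). The exchanger *Slc9b1*, also of sperm, kept 32.1% of its control mean (12.1, 10.7 and 10.7 against 2.86, 3.98 and 3.92 FPKM). These falls were thus graded, from near absence for the first to a partial fall for the last. Smaller falls were those of the sodium/proton exchanger *Slc9a5* (−1.08), the sodium/calcium exchanger *Slc8a2* (−1.01) and the sodium bicarbonate transporter *Slc4a8* (−0.53, and −0.20 under quantile normalisation, adjusted p = 0.24). The rises in this class were *Slc4a11* (0.58, from 2.32, 3.42 and 3.53 to 5.37, 4.74 and 5.11 FPKM) and the cation-chloride cotransporters *Slc12a4* (0.47) and *Slc12a2* (0.44). *Slc9a8*, a Golgi and acrosome exchanger, did not pass the test (9.70, 8.10 and 8.70 against 9.38, 9.97 and 10.2 FPKM, adjusted p = 0.27).

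Carriers of organic ions included further large falls. *Slc22a16*, a carnitine transporter, measured 18.9, 16.3 and 15.2 FPKM in the control and 0.026, 0.311 and 0.191 FPKM in the cKO (−3.92 ± 0.14 SE, limma adjusted p = 4.4e-06). *Slc22a14*, another carrier of the male germ line, measured 9.26, 20.9 and 10.03 FPKM against 0.366, 0.421 and 0.487 FPKM (−3.25 ± 0.28, adjusted p = 2.0e-04, and −2.90 without control 2). *Slc13a5*, which imports citrate, was at 3.42, 2.26 and 2.82 FPKM in the control with 2, 3 and 0 fragments in the cKO (adjusted p = 1.9e-04). In these 3 genes the cKO values were all under 5% of the control mean. *Slc22a18* fell by 1.13 on the log2 scale, and *Slc47a2*, a proton-coupled organic cation exporter, fell from 14.8, 11.1 and 13.04 to 8.62, 2.91 and 4.08 FPKM (−1.27 ± 0.32, adjusted p = 0.021). The value of cKO 1 was the highest of its group there, as it was for *Slc22a6*, the organic anion transporter OAT1, which rose from 0.875, 0.762 and 0.790 to 4.77, 1.78 and 1.72 FPKM (0.96 ± 0.30, adjusted p = 0.045). Without cKO 1 these differences were −1.64 and 0.60, and both passed the test. *Slc22a6* did not pass when any other library was left out (adjusted p up to 0.11), and *Slc47a2* did not without control 1, control 3 or cKO 3 (up to 0.073). cKO 1 also had the highest Sertoli cell marker sum, and the part of those cells in these values was not tested. The other rises were the folate carrier *Slc19a1* (0.53), the ascorbate transporter *Slc23a2* (0.50), the ergothioneine transporter *Slc22a4* (0.38) and the fatty acid protein *Slc27a2* (0.37).

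Mitochondrial carriers sit in the mitochondrial membranes and exchange nucleotides, phosphate, metals and intermediates with the cytosol. *Slc25a31*, the ADP/ATP carrier made in germ cells, had the highest level of all members, at 150, 140 and 148 FPKM in the control and 160, 196 and 176 FPKM in the cKO (0.27 ± 0.089 SE, limma adjusted p = 0.054). The groups did not overlap, but the difference missed the threshold. It passed in 5 of 16 refits, with adjusted p-values from 0.012 to 0.14. *Slc25a5*, the ADP/ATP carrier of dividing cells, rose from 7.19, 7.45 and 7.73 to 12.6, 10.995 and 12.9 FPKM (0.63 ± 0.09, adjusted p = 0.0019). *Slc25a4*, the carrier of muscle and heart, was at 5.29, 3.74 and 6.54 FPKM against 6.17, 4.24 and 7.10 FPKM (adjusted p = 0.65), and these groups overlapped. *Slc25a31* stood at 20.8, 18.8 and 19.2 times *Slc25a5* in the control and at 12.7, 17.8 and 13.6 times in the cKO, per length.

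Several abundant carriers of metals, glutathione and phosphate fell. *Slc25a39*, which imports glutathione into mitochondria, fell from 70.1, 86.2 and 66.3 to 34.5, 25.9 and 32.4 FPKM (−1.24 ± 0.14 SE, limma adjusted p = 6.4e-04). *Slc25a28*, the iron importer mitoferrin 2, fell from 55.9, 43.3 and 51.7 to 29.8, 31.8 and 29.4 FPKM (−0.71 ± 0.10, adjusted p = 0.0022). *Slc25a3*, the phosphate carrier, measured 48.4, 46.1 and 41.8 against 36.7, 37.2 and 38.5 FPKM (−0.27 ± 0.075, adjusted p = 0.031), the smallest of the falls, and it passed in 6 of 16 refits. *Slc25a33*, a pyrimidine nucleotide carrier at a similar level, overlapped between the groups (adjusted p = 0.59), whereas its relative *Slc25a36* rose by 0.36 (adjusted p = 0.011). The ornithine carriers differed in direction. *Slc25a2* fell from 4.83, 6.77 and 2.87 to 0.744, 0.898 and 0.481 FPKM (−1.72 ± 0.26), and *Slc25a15* rose from 0.981, 1.59 and 1.006 to 2.28, 1.93 and 2.49 FPKM (0.57 ± 0.16). Further calls were falls of the ATP-Mg/phosphate carrier *Slc25a41* (−1.47) and the mitochondrial dynamics protein *Slc25a46* (−0.59, and −0.28 under quantile normalisation, adjusted p = 0.095), and a rise of the glutamate carrier *Slc25a18* (0.57).

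**Figure D5:**
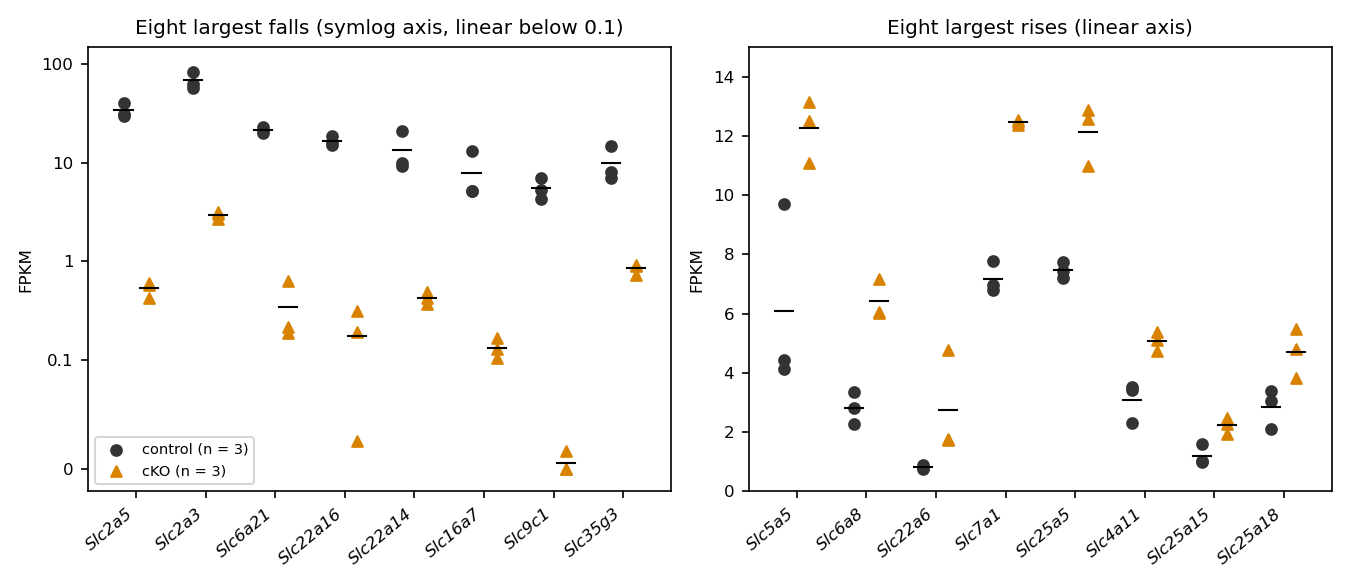
FPKM in each library (circles, control; triangles, cKO; n = 3 each; bars, means) of the members with the 8 largest falls on the log2(FPKM + 1) scale (left, symmetric log axis that is linear below 0.1) and the 8 largest rises (right, linear axis from 0). The control and cKO points do not overlap in any of these genes, and control 2 is at least 1.5 times both other controls in *Slc16a7*, *Slc22a14* and *Slc35g3*.

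Among amino acid transporters 9 of 32 had groups that did not overlap (28.1%, beside 50.4% of all genes tested), and classes were not tested against each other. *Slc6a21*, a gene of the neurotransmitter transporter family, measured 23.2, 20.9 and 20.2 FPKM in the control and 0.214, 0.635 and 0.187 FPKM in the cKO (−4.08 ± 0.15 SE, limma adjusted p = 4.8e-06). Its relative *Slc6a16* fell from 8.49, 6.56 and 4.72 to 0.947, 2.12 and 1.501 FPKM (−1.58 ± 0.24, adjusted p = 0.0026). *Slc36a3*, of the proton-coupled amino acid transporter family, was at 1.78, 9.38 and 2.11 FPKM in the control, with 1, 0 and 0 fragments in the cKO (adjusted p = 0.014). Its control 2 value was 5.28 and 4.45 times those of control 1 and 3. The rises were *Slc6a8*, the creatine transporter, from 2.81, 2.28 and 3.36 to 7.18, 6.04 and 6.01 FPKM (0.96 ± 0.14, adjusted p = 0.0021), *Slc7a1*, the cationic amino acid transporter, from 6.79, 6.98 and 7.79 to 12.5, 12.4 and 12.5 FPKM (0.72 ± 0.08, adjusted p = 6.9e-04), and *Slc7a8*, a neutral amino acid exchanger (0.46, adjusted p = 0.019). The most abundant genes of the class, the leucine exchanger *Slc7a5* (48.6, 52.2 and 44.6 against 51.0, 39.0 and 45.1 FPKM) and its partner chain *Slc3a2* (40.4, 41.1 and 35.7 against 42.4, 37.0 and 42.6 FPKM), overlapped between the groups (adjusted p = 0.48 and 0.66).

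Of the metal transporters 18 of 25 did not pass the test, and the rises were small. *Slc41a3*, a magnesium transporter of mitochondria, fell from 3.69, 3.07 and 4.89 to 1.53, 1.29 and 0.927 FPKM (−1.11 ± 0.18 SE, limma adjusted p = 0.0038), and *Slc30a3*, which loads zinc into vesicles, fell from 12.4, 16.8 and 11.9 to 5.79, 5.86 and 5.83 FPKM (−1.09 ± 0.13, adjusted p = 0.0010). The zinc importer *Slc39a3* fell by 0.52 on the log2 scale. The rises were *Slc30a9* (0.53, from 10.2, 9.47 and 10.4 to 14.8, 16.1 and 13.8 FPKM), *Slc39a11* (0.50), *Slc30a6* (0.45) and *Slc39a1* (0.32), all of zinc transporter families. *Slc39a1* shares sequence with other genes, with 85.2% of its 100-base windows found in no other gene.

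Among nucleoside and nucleotide sugar transporters, *Slc35g3* fell from 7.05, 14.9 and 8.04 to 0.905, 0.929 and 0.732 FPKM (−2.50 ± 0.25 SE, limma adjusted p = 3.8e-04, and −2.20 without control 2), and the lysosomal nucleoside transporter *Slc29a3* fell from 2.13, 3.42 and 2.09 to 0.949, 0.854 and 0.947 FPKM (−0.87 ± 0.18, adjusted p = 0.0093, and −0.70 without control 2). A pair of nucleoside transporters of the plasma membrane rose, while their relative *Slc29a4* did not pass (−0.10, adjusted p = 0.72). *Slc29a1* went from 21.9, 20.1 and 20.1 to 27.7, 33.2 and 31.4 FPKM (0.55 ± 0.09, adjusted p = 0.0033), and *Slc29a2* from 5.53, 6.02 and 6.41 to 9.91, 8.26 and 9.61 FPKM (0.55 ± 0.10, adjusted p = 0.0065). The Golgi carriers of CMP-sialic acid (*Slc35a1*, 0.53) and UDP-galactose (*Slc35a2*, 0.44) rose too.

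Across classes, 11 members known from spermatids and sperm and 9 tested members known from growing cells were set side by side. These lists were drawn up with earlier results of these libraries known. Of the 11, 0 were higher and 9 lower, where 11.8% of all genes tested were higher and 22.2% lower, with *Slc25a31* and *Slc9a8* not past the threshold. However, 5 of the 9 that fell reached 1 FPKM in the control alone, so that their high control level brought them into the test, and among the 6 at 1 FPKM in both groups 4 fell. Of the 9, 4 were higher (*Slc7a1*, *Slc16a1*, *Slc19a1* and *Slc29a1*) and 0 lower, and *Slc1a5*, *Slc2a1*, *Slc3a2*, *Slc7a5* and *Slc38a2* did not pass. *Slc7a11* lay below the level limit. The spermatid and pachytene marker sums given above fell in the same libraries, and their part in these values was not tested. In 5 of the 32 members that fell (*Slc36a3*, *Slc16a7*, *Slc35g3*, *Slc29a3* and *Slc22a14*) control 2, the library with the highest spermatid marker sum, was at least 1.5 times both other controls. Without control 2, 22 members were higher and 35 lower, with 19 and 31 shared with the counts above.

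Transport genes without an *Slc* name gave calls in both directions. Of 27 genes with a value 13 were tested, with 1 higher and 5 lower (all genes tested, 11.8% and 22.2%). Of the 5 that fell 3 (*Slco6c1*, *Slco6d1* and *Slco3a1*) entered the test through their control level, and 2 were lower when 1 FPKM was required in both groups. *Slco6c1*, an organic anion transporter of the testis, was at 9.44, 7.78 and 7.06 FPKM in the control and was listed at 0 in all 3 cKO libraries (limma adjusted p = 9.4e-06), as was *Slco6d1*. The other falls were *Slco3a1* (−0.96), the ammonia channel *Rhcg* (−0.67) and *Mpc2*, a subunit of the mitochondrial pyruvate carrier (−0.44). The cholesterol exporter of lysosomes, *Npc1*, rose from 4.55, 4.79 and 5.29 to 7.12, 8.48 and 7.37 FPKM (0.56, adjusted p = 0.0066). Of the sodium pump and partner subunits, 8 were tested, with 1 higher and 3 lower, beside the same shares of all genes. *Atp1a4*, the pump subunit of sperm, measured 20.4, 57.8 and 18.9 FPKM in the control and 0.087, 0.056 and 0.036 FPKM in the cKO (−4.79, adjusted p = 1.5e-04), with control 2 again the highest. *Bsg*, the chaperone that carries monocarboxylate carriers to the membrane, fell by 0.30 on the log2 scale (adjusted p = 0.035), and *Atp1b3* fell by 0.47.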

How the data were processed

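RNA was sequenced from 3 control and 3 cKO libraries of STRA8+ mouse germ cells. Per the labels, reads were aligned to mm10 with HISAT2 2.0.5 (submitters' processing notes). The values used are the FPKM the authors deposited per gene, with the counting tool and annotation not given in the sources used here. All FPKM values were whole multiples of 1 fragment within 0.02, so fragments were recovered for an alternative. On log2(FPKM + 1), limma 3.58.1 (R 4.3.3) was fitted to the 15451 genes whose mean reached 1 FPKM, using an intensity trend and Benjamini-Hochberg adjustment. The script was tested on simulated data. No single gene of 3 against 3 libraries can go below p = 0.10 in an exact permutation test, so p-values come from limma, whose fit shares the spread across genes. Named by rule were the 8 largest rises and falls, the 8 highest levels, the sperm and growth lists, the ADP/ATP carriers, the extremes of each class and pathway list, the genes at the level limit and the non-transporters. The other called members and *Slc16a3*, *Slc29a4*, *Slco6d1*, *Slco3a1*, *Rhcg*, *Mpc2*, *Bsg* and *Atp1b3* were named after their values were seen. Members and lists were chosen with earlier results of these data known. Some named genes are not reported here. Alternatives changed the filter, pseudocount, scaling, test or libraries. Values that rest on 3 fragments or fewer carry large counting error.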

Additional observations from a re-analysis of the deposited data

How the results depend on the processing

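The count of members higher depended on the setting more than the count lower. Members higher numbered 28 and became 15 with no level filter, 18 at a mean of at least 5 FPKM, 85 under quantile normalisation, 10 with a replicate block and 0 at an absolute log2 fold change of at least 1. Members lower numbered 32 and became 17 at 5 FPKM and 18 when 1 FPKM was required in both groups. Leaving out each library in turn gave 12 to 22 higher and 29 to 35 lower. limma-voom on the recovered fragments gave 42 higher and 30 lower. Falls made up 53.3% of the calls, and 24.1% under quantile normalisation, 41.7% under limma-voom, 40.9% with 1 FPKM in both groups, 67.4% with no filter and 74.4% with the block. Of the called members, 9 of the higher and 26 of the lower were called in each of the 16 refits that tested them, and none was called in the opposite direction. The stricter filters test fewer genes, and requiring 1 FPKM in both groups left out the falls of members that reached it in the control alone. The cause of the other changes was not tested. Same-numbered libraries showed no sign of pairing: the correlation of their deviations was −0.11 to 0.016, and 1 of 6 libraries correlated best with its own number. Control 2 deviates by spermatid markers that were near 0 beside it in the cKO, so this check cannot exclude pairing.

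Class counts changed by more than 1.5 times as follows. With no filter, the higher counts were 1 for glucose and monocarboxylates, 2 for metal ions, 2 for mitochondrial carriers, 2 for nucleosides and nucleotide sugars, 3 for organic ions and 2 for transporters without an Slc name. At 5 FPKM the higher counts were 3 for glucose, 2 for mitochondrial carriers and 2 for organic ions, and the lower counts 1 for amino acids, 3 for glucose, 4 for mitochondrial carriers, 1 for nucleosides, 3 for organic ions, 3 for protons and sodium and 2 for transporters without an Slc name. Under quantile normalisation the higher counts were 11 for amino acids, 11 for glucose, 11 for metal ions, 14 for mitochondrial carriers, 2 for non-transporters, 15 for nucleosides, 8 for organic ions, 13 for protons and sodium, 5 for transporters without an Slc name and 3 for partners and pump, and the lower count for glucose was 3. With the replicate block the higher counts were 2 for glucose, 1 for metal ions, 1 for mitochondrial carriers, 2 for nucleosides, 1 for organic ions and 1 for protons and sodium. At an absolute log2 fold change of at least 1 every higher count was 0, and the lower counts were 3 for glucose, 3 for mitochondrial carriers, 1 for nucleosides, 2 for transporters without an Slc name and 1 for partners and pump. With 1 FPKM in both groups the lower counts were 1 for amino acids, 3 for glucose, 0 for nucleosides, 1 for organic ions and 2 for transporters without an Slc name. limma-voom gave 5 higher for amino acids, 1 for non-transporters, 9 for nucleosides, 7 for protons and sodium and 2 for partners and pump, and FPKM recomputed from fragments gave 1 higher for non-transporters and 7 for nucleosides. Leaving out each library gave 1 to 3 higher for glucose, 1 to 4 for metal ions, 2 to 3 for mitochondrial carriers, 0 to 1 for non-transporters, 2 to 4 for nucleosides, 1 to 4 for organic ions and 1 to 4 for protons and sodium.

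For *Srsf1* and 79 named genes the log2 fold change was refitted. Of 1297 values of the named genes, 1091 kept the direction and side of the threshold, 178 no longer passed, 16 newly passed and 12 changed sign, all in genes that did not pass: *Slc1a5* 0.14 and *Slc39a4* 0.47 under quantile normalisation, and *Slc9a3r1* 0.20 under quantile normalisation, 0.021 with recomputed FPKM and 0.024 under limma-voom. Leaving out a library changed the sign of *Slc25a4* (range −0.034 to 0.33), *Slc39a4* (range −0.18 to 0.016), *Slc3a2* (−0.0051 to 0.12), *Slc7a6os* (−0.0061 to 0.12) and *Slc9a3r1* (−0.18 to 0.092). *Srsf1* passed in all 16 refits. Quantile normalisation ended the calls of *Slc2a8*, *Slc4a8*, *Slc5a10*, *Slc25a3* and *Slc25a46*. Calls beyond those named in the report that a left-out library ended were *Slc25a36* and *Slc39a11* (cKO 3), *Slc4a11* (cKO 1 or 3), *Slc27a2* (control 3 or cKO 1), *Slc7a8* (control 1, cKO 1 or 3), *Slc23a2* (control 1, control 3 or cKO 3), *Slc4a8* (control 1), *Slc5a10* (each but control 1 and 2), *Slc35a1* (each but control 1 and cKO 1), *Slc12a4*, *Slc22a4*, *Slc25a15* and *Slc45a3* (each but control 2), *Slc25a3* and *Slc35a2* (each but control 3), *Slc30a6* and *Slc39a1* (each but cKO 1), and *Slc25a18* (each but cKO 3).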

Other observations

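The 9 X-linked members included 3 that rose and none that fell by the limma test (11.8% and 22.2% of all genes tested). These shares are over all chromosomes, and whether X-linked genes outside the members behave alike was not tested. *Slc6a8*, *Slc25a5* and *Slc35a2* are described above, and *Slc35a2* passed in 9 of 16 refits. *Slc25a14*, a mitochondrial uncoupling protein family member, was at 8.27, 6.10 and 8.78 FPKM against 10.04, 10.7 and 10.1 FPKM (adjusted p = 0.063). The lowest of the 9 changes was that of *Slc38a5*, a glutamine transporter (−0.39, adjusted p = 0.12). These genes were chosen after their values were seen.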
